A study of Drosophila melanogaster with 20 samples.

Results

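Odorant binding proteins (Obps) are small secreted proteins that carry hydrophobic odorants and pheromones through the fluid around sensory neurons. In Drosophila they are best known from the antenna and the taste organs, where a sensillum bathes its neurons in a lymph rich in Obps, and where receptors of the odorant (Or), gustatory (Gr) and ionotropic (Ir) families detect the ligand. Several Obps are made elsewhere, and a group of them is transferred to females in the seminal fluid. The genes described here are all those of the expression table whose symbol is Obp followed by a digit, 51 of 17276 genes. The lush gene, which also encodes an Obp and is needed to sense the pheromone cis-vaccenyl acetate, is not a member under that rule.

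N6-methyladenosine (m6A) is a methyl mark that a nuclear writer complex, with the catalytic subunit Mettl3 and its partner Mettl14, adds to mRNA, and Hakai is an E3 ubiquitin ligase that associates with that complex. Whole adult Drosophila melanogaster flies aged 1 to 2 days were compared in 5 groups: males of Mettl3SK2/Df (an allele over a deficiency that removes Mettl3), of Mettl14SK1 and of Hakai4 (an indel made with CRISPR/Cas9, named HakaiSH4 in the study), together with yw females and yw males, the control strain, which carries yellow and white mutations (the labels do not say whether the mutants share that background). Each group had 2 libraries of poly(A) RNA fragments pulled down with an m6A antibody (IP) and 2 libraries of untreated fragments (input), with no statement that they came from separate sets of flies, so p-values measure the spread between these libraries, which may be technical. RNA levels are the deposited FPKM values (fragments per kilobase of transcript, scaled to the mapped fragments of a library) of the 10 input libraries. Peaks are stretches where IP exceeded input, in 1 list per group.

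The 51 genes lie mostly in clusters. There were 29 on chromosome arm 2R, 12 on 3R, 6 on X, 2 on 2L and 2 on 3L. The cluster with the most members holds Obp56a to Obp56f in 16254 bases of 2R, and Obp57c, Obp57b and Obp57a lie on the same strand in 2175 bases (2R, 20503584 to 20505758, Release 6 coordinates). Obp50b and Obp50c are listed with the same 1821 bases on the same strand, so the split of reads between them is uncertain. Genes on the opposite strand overlap others, among them Obp44a (Pabp2), Obp51a (hbs), Obp56e (asRNA:CR44509), Obp69a (CG32104) and Obp84a (CG10050). The libraries were strand-specific, but whether the quantification used strand is not given in the sources used here.

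Obp RNA was dominated by a few genes. At least 1 FPKM was reached by 24 members in all 10 libraries and by 14 in some of them, while 13 stayed under 1 FPKM throughout, with 0.728 FPKM as their highest value. All members together summed to between 1588 and 6918 FPKM in a library, which is 0.289% to 1.14% of the FPKM of all genes. Obp99c alone made up 30.7% to 53.6% of the Obp sum, and the 10 highest members made up 89.9% of its mean. The plot of levels by library shows the 38 members that reached 1 FPKM.

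**Figure D1:**
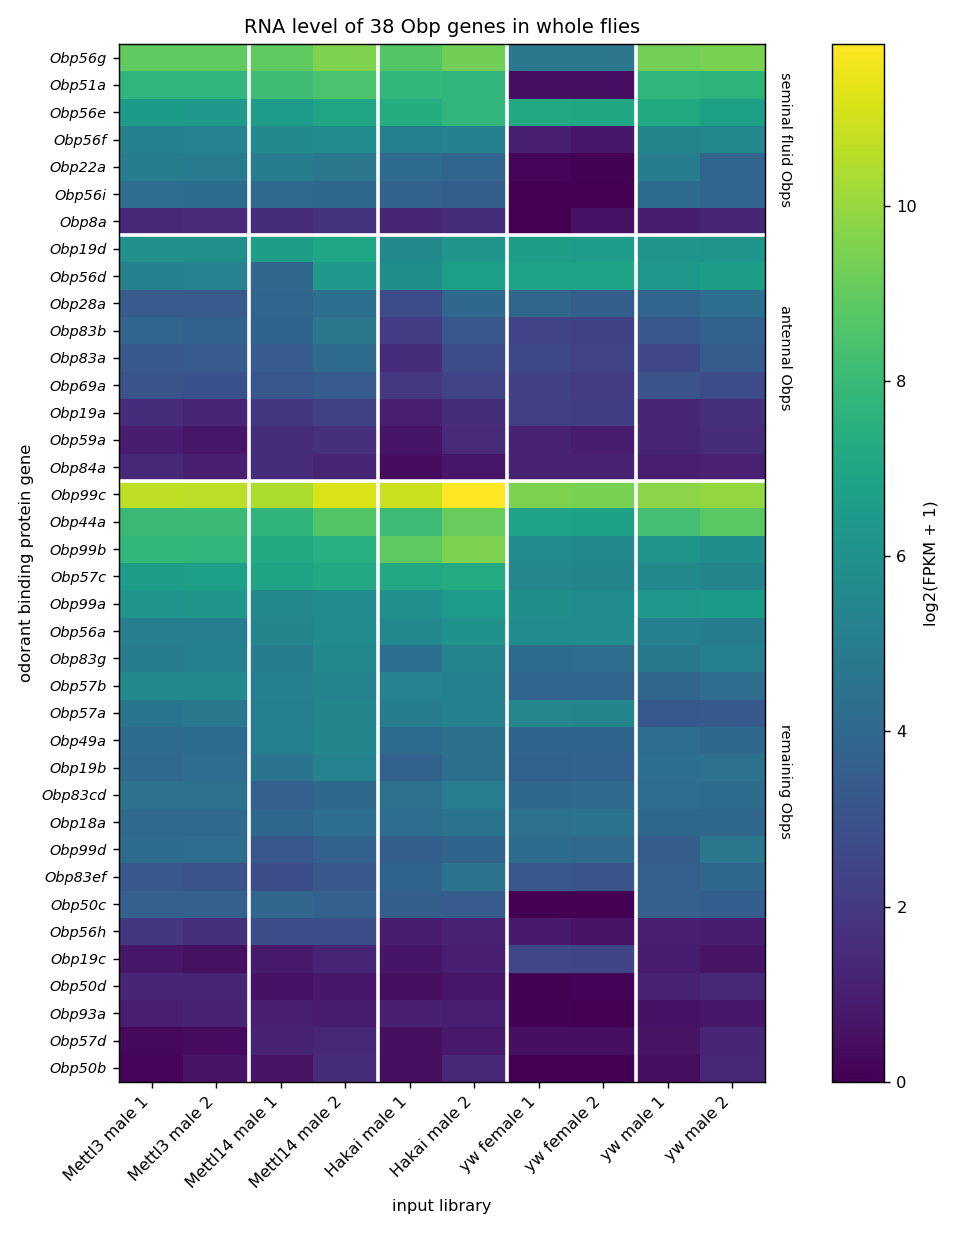
RNA level of 38 Obp genes as log2(FPKM + 1) in each of the 10 input libraries (columns, 2 per group) with genes in rows, grouped as seminal fluid, antennal and remaining Obps and ordered within each by mean level. Obp99c is the brightest row in every library, and Obp51a, Obp22a and Obp56i are dark in both yw female libraries and not in the 8 male libraries.

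The libraries matched their labels for the mutated genes. Mettl3 was at 2.43 and 2.10 FPKM in Mettl3 males against 5.22 and 5.17 FPKM in yw males, Mettl14 at 1.77 and 2.02 FPKM in Mettl14 males against 4.19 and 4.25 FPKM in yw males, and Hakai at 0.767 and 1.21 FPKM in Hakai males against 2.47 and 3.36 FPKM in yw males. The files give no read totals, so depth is unknown. Markers of the accessory gland, which makes most seminal fluid proteins, summed to between 3537 and 11123 FPKM in the 8 male libraries and to 15.98 and 16.5 FPKM in yw females, with 12 of 12 at 1 FPKM or more in every male library. Testis markers, 10 of 12 in the table, summed to between 2527 and 3546 FPKM in males and to 7.26 and 7.59 FPKM in yw females, ovary markers to between 2.71 and 7.43 FPKM in males and to 1451 and 1523 FPKM in yw females, and eye markers to between 1037 and 1300.4 FPKM in all libraries. Yolk protein genes, the female fat body markers, summed to 8.59 and 8.80 FPKM in Mettl3 males, 39.8 and 105 FPKM in Mettl14 males and 52.6 and 66.2 FPKM in Hakai males, 4217 and 4307 FPKM in yw females and 5.27 and 7.37 FPKM in yw males. In Hakai males that sum was mostly Yp3 (48.0 and 63.5 FPKM), with Yp1 at 2.21 and 1.19 FPKM and Yp2 at 2.40 and 1.51 FPKM. In Mettl14 males Yp3 was at 33.7 and 65.9 FPKM, Yp1 at 3.63 and 24.3 FPKM and Yp2 at 2.49 and 14.7 FPKM. Antennal markers were low, with sums of 14.7 to 34.4 FPKM for 7 genes. Within the Mettl14 and the Hakai group the 2 libraries differed in Obp levels: 30 of 34 members were higher in replicate 2 of Mettl14 males (47.4% of all genes were) and 29 of 34 in replicate 2 of Hakai males (55.9% of all genes).

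Each mutant was set against yw males to ask which Obp genes changed when a part of the m6A writer machinery was lost. Genes averaging at least 1 FPKM over the 8 male libraries were tested with limma on log2(FPKM + 1), 33 Obps among 13079 genes. A call needed a log2 fold change of 1 or more in size, and in addition p under 0.05 before adjustment. Adjusted p-values are Benjamini-Hochberg values of limma over all tested genes, and fold changes on this scale understate the change of low genes. In whole flies, fewer cells of a type and less RNA per cell cannot be told apart.

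Between 4 and 6 Obps rose in each mutant, and none was called lower. In Mettl3 males 4 of 33 tested members were called higher (2.94% of all tested genes were called higher and 1.32% lower), namely Obp99b, Obp57b, Obp57a and Obp57c. In Mettl14 males 6 were called higher (3.4% of all tested genes, with 1.23% lower), the same 4 with Obp56h and Obp49a. In Hakai males 5 were called higher (2.47% of all tested genes, with 1.72% lower), the same 4 with Obp99c. All of these but Obp99c in Hakai males also had an adjusted p under 0.05. With the adjusted p in the rule, 2.4%, 2.97% and 2.18% of all tested genes were called higher in Mettl3, Mettl14 and Hakai males. At an unadjusted p under 0.05 with any fold change, 5 members were higher and 3 lower in Mettl3 males (16% and 10.2% of all tested genes), 13 higher and 2 lower in Mettl14 males (18% and 6.21%), and 8 higher and 4 lower in Hakai males (11.5% and 9.18%). The median log2 fold change of the tested members was 0.11 for Mettl3, 0.41 for Mettl14 and -0.12 for Hakai males, beside 0.03, 0.11 and 0.03 for all tested genes. The 3 comparisons share the yw male libraries.

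**Figure D2:**
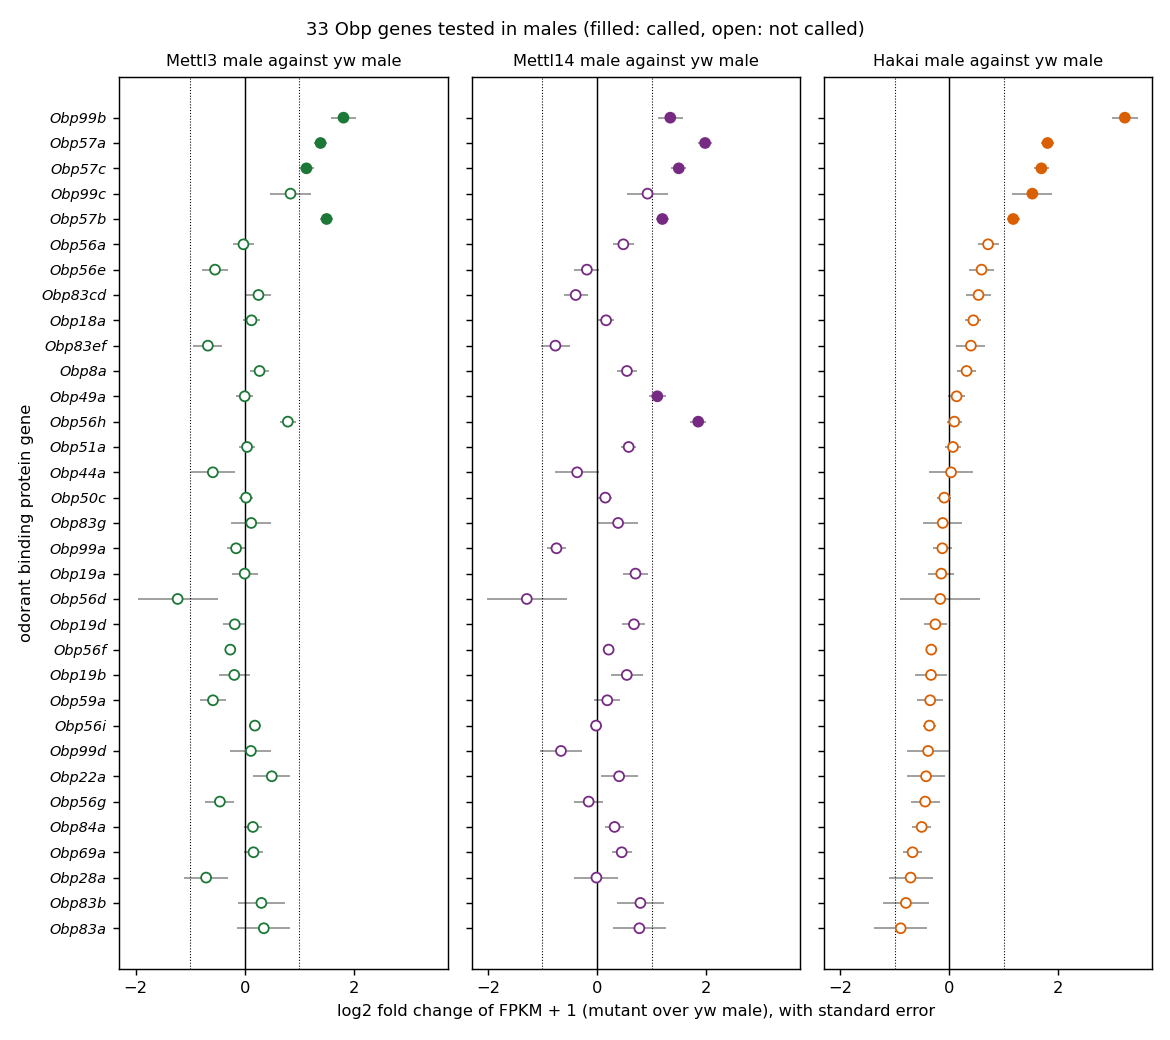
Log2 fold change of FPKM + 1 (mutant over yw male, horizontal axis, with its standard error) for the 33 tested Obp genes in Mettl3, Mettl14 and Hakai males, ordered by the Hakai value. Filled points passed the call, and Obp99b, Obp57a, Obp57b and Obp57c are filled to the right of 1 in all 3 panels.

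The 3 neighbouring genes Obp57a, Obp57b and Obp57c were called higher together in each mutant. Obp57a was at 23.8 and 25.4 FPKM in Mettl3 males, 33.95 and 41.4 in Mettl14 males and 31.2 and 34.97 in Hakai males, against 43.5 and 41.2 in yw females and 8.48 and 9.04 in yw males. Every mutant library was above both yw male libraries, and yw females overlapped Mettl14 males at the top of the range. The log2 fold change was 1.39 (SE 0.12, adjusted p = 0.0017) in Mettl3 males, 1.98 (SE 0.12, adjusted p = 0.00029) in Mettl14 males and 1.802 (SE 0.12, adjusted p = 0.000465) in Hakai males.

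The Obp57b level was 46.3 and 46.7 FPKM for Mettl3, 36.1 and 39.03 for Mettl14 and 37.02 and 36.6 for Hakai males, 13.7 and 13.6 for yw females and 14.1 and 17.7 for yw males. All 6 mutant libraries lay above the 4 yw libraries, with yw females just below yw males. Its log2 fold changes were 1.501 (SE 0.12, adjusted p = 0.00131) for Mettl3, 1.198 (SE 0.12, adjusted p = 0.0021) for Mettl14 and 1.17 (SE 0.12, adjusted p = 0.00249) for Hakai males. In Mettl3 males Obp57c had 98.6 and 103 FPKM, in Mettl14 males 121 and 140.2 and in Hakai males 143 and 155, with 44.1 and 43.1 in yw females and 50.2 and 41.3 in yw males. Again no mutant library overlapped a yw library. Obp57c had log2 fold changes of 1.13 (SE 0.13, adjusted p = 0.00518), 1.499 (SE 0.13, adjusted p = 0.00126) and 1.69 (SE 0.13, adjusted p = 0.000856) in Mettl3, Mettl14 and Hakai males. Without yw male replicate 2, the Obp57c value in Mettl3 males was 0.99 and the call was lost.

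Obp57d and Obp57e, known for taste responses to fatty acids of a toxic host fruit from work that includes Drosophila sechellia, lie apart from the other 3 genes on 2R (20547816 to 20550117) and were too low to be tested. The Obp57e level was 0.449 and 0 FPKM for Mettl3, 0.728 and 0.355 for Mettl14 and 0.291 and 0 for Hakai males, 0 and 0.475 for yw females and 0.288 and 0.0907 for yw males. Obp57e stayed under 1 FPKM in every library, and Obp57d reached at most 1.61 FPKM.

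Within 20000 bases of Obp57c, Obp57b and Obp57a, 4 other genes could be tested in males and 1 was called in each mutant. That gene, lncRNA:CR44645, starts 437 bases beyond Obp57a on the same strand. The lncRNA was at 9.45 and 9.35 FPKM in Mettl3 males, 3.25 and 3.82 FPKM in Mettl14 males, 4.10 and 4.98 FPKM in Hakai males, 0.250 and 0.210 FPKM in yw females and 0.432 and 0.457 FPKM in yw males. Its log2 fold change was 2.85 for Mettl3, 1.65 for Mettl14 and 1.93 for Hakai males, with its largest value in Mettl3 males. Obp57b had its largest value there as well, and Obp57a and Obp57c had their smallest. CG13426, on the other strand 6939 bases away, had log2 fold changes of -0.12, 0.27 and -0.01 and was not called. lncRNA:CR44645 is overlapped on the other strand by lncRNA:CR44644, which was not called either.

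**Figure D3:**
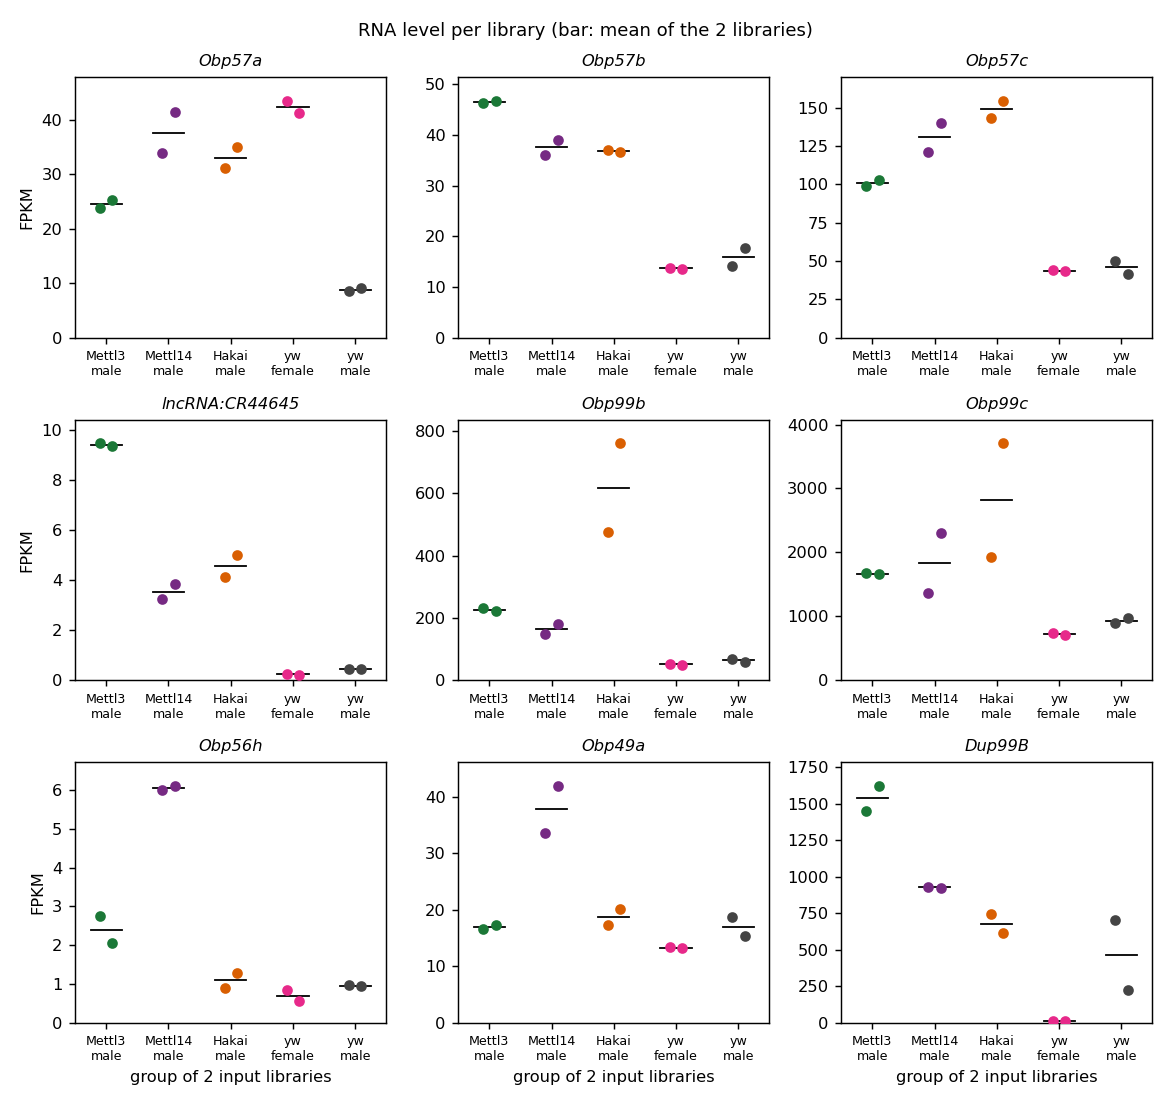
FPKM in each input library (points, 2 per group, with the mean as a bar) for the 7 Obp genes called in a mutant and for 2 of their neighbours, lncRNA:CR44645 and Dup99B. For Obp57a, Obp57b, Obp57c, lncRNA:CR44645 and Obp99b every mutant library lies above both yw male libraries.

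Obp99b, which the sex determination pathway regulates in the fat body of the head, had the largest log2 fold change of the tested members in Hakai and Mettl3 males, and in Mettl14 males those of Obp57a, Obp56h and Obp57c were larger. In Mettl3 males Obp99b had 231 and 221 FPKM, in Mettl14 males 148 and 179.9 and in Hakai males 475 and 760.3, with 52.2 and 49.8 in yw females and 68.3 and 59.4 in yw males. Each mutant was above yw males without overlap, and both Hakai libraries exceeded all other libraries. The log2 fold change was 3.22 (SE 0.23, adjusted p = 0.000599) in Hakai males, 1.81 (SE 0.23, adjusted p = 0.00692) in Mettl3 males and 1.34 (SE 0.23, adjusted p = 0.0173) in Mettl14 males. Fat body markers were also higher in sum in each mutant: their sum was 444 to 447 FPKM in Mettl3 males, 244 to 250 FPKM in Mettl14 males and 706 to 724 FPKM in Hakai males, against 105 to 161 FPKM in yw males. In yw females, where Obp99b was below yw males in both libraries, the sum was 190 to 216 FPKM. Lsp2, Fbp1 and Fbp2 were highest in Hakai males, as Obp99b was, while apolpp was highest in Mettl3 males and Apoltp in yw females. Of the 5 markers, 4 were called higher for Mettl3, 1 for Mettl14 and 3 for Hakai males, all 5 were above 1 FPKM in every group, and their part in the Obp99b values was not tested.

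Obp99d, Dup99B and Obp99b lie within 2392 bases of 3R. Dup99B, which encodes a seminal peptide of the ejaculatory duct, lies between the Obps and was at 1451 and 1623 FPKM in Mettl3 males, 933 and 925 FPKM in Mettl14 males and 741 and 615 FPKM in Hakai males, against 703 and 224 FPKM in yw males. It was called higher in Mettl3 males (log2 fold change 1.95) and Mettl14 males (1.22), by the unadjusted p alone, and in Hakai males, where Obp99b had its largest change, it had 0.76 and was not called. Obp99d was at 17.04 and 18.05 FPKM in Mettl3 males, 8.28 and 11.7 in Mettl14 males and 11.00 and 13.3 in Hakai males, against 17.00 and 16.2 in yw females and 10.2 and 25.2 in yw males. The yw male libraries of Obp99d overlapped all 3 mutant groups, and it was not called. The table held 5 ejaculatory duct and bulb markers, Dup99B among them. They summed to 3164 to 3263 FPKM in Mettl3 males, against 1867 to 2686 FPKM in yw males. The sum was 2753 to 3322 FPKM for Mettl14 and 2480 to 2790 FPKM for Hakai males. For Mettl3 males Dup99B alone was called higher, and Gld was called lower (4.93 and 4.95 FPKM, against 15.6 and 10.5 in yw males). EbpIII had 338 and 348 FPKM in Mettl3 males, below the 515 and 602 FPKM of yw males. Both Mettl3 libraries of EbpII and Est-6 lay inside the yw male range. All 5 markers had a log2 fold change above 0 in Mettl14 males. The part of these markers in the Obp99b values was not tested. Of the 10 other genes tested within 20000 bases of Obp99d and Obp99b, 3 were called higher for Mettl3, 1 for Mettl14 and none for Hakai males, where 1 (lncRNA:CR45569) had an unadjusted p under 0.05 by limma.

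Obp99c was the most abundant member. The Obp99c level was 1677 and 1654 FPKM for Mettl3, 1360.0 and 2300.1 for Mettl14 and 1930.0 and 3707 for Hakai males, 739 and 711 for yw females and 895 and 968 for yw males. All mutant libraries exceeded the yw libraries, but the 2 Hakai libraries differed from each other by more than the yw libraries did from Mettl3 males. Its log2 fold change was 1.52 (SE 0.37, adjusted p = 0.0558) in Hakai males, so it passed the call without passing at an adjusted p under 0.05. In Mettl3 males it was 0.84 (SE 0.37, adjusted p = 0.209), and in Mettl14 males 0.93 (SE 0.37, adjusted p = 0.188). Obp99a, in the same cluster of 17655 bases, did not follow it. In Mettl3 males Obp99a had 73.04 and 76.5 FPKM, in Mettl14 males 47.6 and 51.5 and in Hakai males 63.9 and 91.3, with 58.5 and 53.7 in yw females and 80.2 and 87.1 in yw males. Its log2 fold change was -0.74 (SE 0.17, adjusted p = 0.0473) in Mettl14 males, below the size needed for a call.

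Obp56h and Obp49a were called in Mettl14 males and not in Mettl3 or Hakai males, although with a pseudocount of 0.1 in place of 1 Obp56h was called in Mettl3 males too. Obp56h affects mating behaviour in males. Obp56h was at 2.74 and 2.04 FPKM in Mettl3 males, 6.01 and 6.11 in Mettl14 males and 0.898 and 1.28 in Hakai males, against 0.829 and 0.556 in yw females and 0.968 and 0.934 in yw males. The Mettl14 libraries were at least 2-fold above every other library. Obp56h had a log2 fold change of 1.86 (SE 0.14, adjusted p = 0.000624) in Mettl14 males, 0.79 (SE 0.14, adjusted p = 0.0213) in Mettl3 males and 0.09 (SE 0.14, adjusted p = 0.822) in Hakai males. Obp49a acts in taste sensilla, where it is needed for bitter compounds to suppress the response to sugar. The Obp49a level was 16.6 and 17.2 FPKM for Mettl3, 33.7 and 41.9 for Mettl14 and 17.4 and 20.1 for Hakai males, 13.3 and 13.2 for yw females and 18.7 and 15.3 for yw males. Both Mettl14 libraries were above all others, while Hakai males overlapped yw males and the Mettl3 values lay inside the yw male range. The log2 fold change was 1.11 (SE 0.15, adjusted p = 0.00666) in Mettl14, -0.00044 (SE 0.15, adjusted p = 0.999) in Mettl3 and 0.13 (SE 0.15, adjusted p = 0.732) in Hakai males. The Obp49a call is a narrow one: without Mettl14 replicate 2 the value was 0.95, without yw male replicate 2 it was 0.97, and with all libraries scaled to equal medians, which lowers every Mettl14 value by 0.13, it was 0.97. No call was made in these 3 cases.

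The 7 seminal fluid Obps, which include some of the most abundant members, were not called in any mutant. Of all tested genes 4.26% were called in Mettl3 males, 4.63% in Mettl14 males and 4.19% in Hakai males, and at such rates a list of 7 can well hold no call. Without yw male replicate 1, Obp22a was called in Mettl3 males. At an unadjusted p under 0.05 with any fold change, 1 was lower in Mettl3 males (10.2% of all tested genes), 2 were higher in Mettl14 males (18%), and 1 was higher and 2 were lower in Hakai males (11.5% and 9.18%). Obp56g was at 493 and 498 FPKM in Mettl3 males, 495 and 755 in Mettl14 males and 406 and 617 in Hakai males, against 25.04 and 24.99 in yw females and 653 and 709 in yw males. The Obp51a level was 222 and 224 FPKM for Mettl3, 288 and 365 for Mettl14 and 229.9 and 224 for Hakai males, 0.373 and 0.358 for yw females and 224 and 209 for yw males. Both were abundant in each male group, and for Obp56g the mutants overlapped yw males only in Mettl14. The log2 fold changes of Obp51a were 0.04, 0.58 and 0.07 in Mettl3, Mettl14 and Hakai males.

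In Mettl3 males Obp56e had 86.9 and 83.4 FPKM, in Mettl14 males 94.2 and 127 and in Hakai males 161 and 220.0, with 144 and 139 in yw females and 146 and 107 in yw males. Obp56f was at 34.97 and 37.8 FPKM in Mettl3 males, 50.3 and 51.7 in Mettl14 males and 33.4 and 36.1 in Hakai males, against 1.05 and 0.718 in yw females and 42.4 and 45.4 in yw males. Obp56e levels were highest in Hakai males and lowest in Mettl3 males, with yw females inside the yw male range, and Obp56f was highest in Mettl14 males. The Obp22a level was 30.6 and 28.4 FPKM for Mettl3, 30.8 and 24.8 for Mettl14 and 16.7 and 13.6 for Hakai males, 0.104 and 0.0592 for yw females and 30.8 and 13.7 for yw males. In Mettl3 males Obp56i had 17.7 and 17.4 FPKM, in Mettl14 males 15.5 and 14.8 and in Hakai males 12.2 and 11.2, with 0 and 0 in yw females and 17.00 and 13.8 in yw males. Obp8a was at 1.48 and 1.64 FPKM in Mettl3 males, 1.88 and 2.34 in Mettl14 males and 1.35 and 1.97 in Hakai males, against 0 and 0.484 in yw females and 0.8704 and 1.405 in yw males. The 2 yw male libraries of Obp22a differed by more than 2-fold, as wide as the spread over the mutants. The median log2 fold change of the 7 genes was 0.04 in Mettl3 males (-0.00092 with equal medians), 0.21 in Mettl14 males and -0.33 in Hakai males. Accessory gland markers in the same libraries summed to 8977 to 9153 FPKM in Mettl3 males, 7445 to 11123 FPKM in Mettl14 males and 4560 to 6014 FPKM in Hakai males, against 3537 to 6655 FPKM in yw males, and 2, 2 and 0 of 12 were called, all higher.

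The 9 antennal Obps were not called in any mutant either, beside 4.26%, 4.63% and 4.19% of all tested genes in Mettl3, Mettl14 and Hakai males. At such rates a list of 9 can well hold no call. Under single alternatives 5 of them were called. Obp56d was called in Mettl3 males with the 4 libraries fitted alone and in Mettl14 males without Mettl14 replicate 2, and Obp83b in Mettl14 males without Mettl14 replicate 1. In Hakai males Obp84a was called with a pseudocount of 0.1, Obp83a without yw male replicate 1, and Obp28a, Obp83a and Obp83b without Hakai replicate 2. At an unadjusted p under 0.05 with any fold change, 1 was lower in Mettl3 males (10.2% of all tested genes), 3 were higher in Mettl14 males (18%) and 2 were lower in Hakai males (9.18%). Their median log2 fold change was -0.00099 for Mettl3, 0.45 for Mettl14 and -0.51 for Hakai males. In Hakai males all 9 values were below 0, also with equal medians (median -0.54). Obp83a was at 8.83 and 9.65 FPKM in Mettl3 males, 9.78 and 16.5 in Mettl14 males and 1.83 and 5.62 in Hakai males, against 4.92 and 4.45 in yw females and 4.705 and 10.3 in yw males. The Obp83b level was 13.6 and 12.02 FPKM for Mettl3, 13.2 and 25.2 for Mettl14 and 3.36 and 8.45 for Hakai males, 4.299 and 4.03 for yw females and 8.45 and 12.1 for yw males. These genes, expressed side by side in trichoid sensilla, had a low library in Hakai males (replicate 1) and a high one in Mettl14 males (replicate 2). Their log2 fold changes were -0.89 (SE 0.49, adjusted p = 0.384) and -0.795 (SE 0.43, adjusted p = 0.373) in Hakai males.

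In Mettl3 males Obp69a had 7.31 and 6.99 FPKM, in Mettl14 males 8.38 and 9.61 and in Hakai males 2.96 and 4.28, with 3.69 and 3.12 in yw females and 7.25 and 5.44 in yw males. Obp69a, whose level in the antenna responds to social context, was lower in both Hakai libraries than in both yw male libraries, with a log2 fold change of -0.67 (SE 0.18, adjusted p = 0.0771). Obp28a was at 9.53 and 9.45 FPKM in Mettl3 males, 13.4 and 19.1 in Mettl14 males and 5.75 and 15.3 in Hakai males, against 14.2 and 11.1 in yw females and 13.7 and 18.95 in yw males. The Obp19d level was 63.4 and 61.5 FPKM for Mettl3, 99.8 and 131 for Mettl14 and 48.6 and 72.4 for Hakai males, 96.2 and 92.6 for yw females and 73.2 and 68.9 for yw males. Obp28a overlapped between Hakai and yw males with Hakai replicate 2 at the yw male level. Without Hakai replicate 2, it was among the 8 calls in Hakai males. In Mettl3 males Obp56d had 35.2 and 37.6 FPKM, in Mettl14 males 14.1 and 84.4 and in Hakai males 58.6 and 102, with 117 and 116 in yw females and 78.5 and 95.8 in yw males. Obp56d varied within the Mettl14 group alone by more than 5-fold, and it had log2 fold changes of -1.23 (SE 0.74, adjusted p = 0.34) in Mettl3 and -1.29 (SE 0.74, adjusted p = 0.345) in Mettl14 males.

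Obp19a, Obp59a and Obp84a were the lowest antennal Obps. Obp19a was at 1.96 and 1.44 FPKM in Mettl3 males, 2.81 and 4.03 in Mettl14 males and 1.02 and 1.92 in Hakai males, against 3.77 and 3.596 in yw females and 1.405 and 2.004 in yw males. The Obp59a level was 0.887 and 0.6499 FPKM for Mettl3, 1.904 and 2.12 for Mettl14 and 0.6097 and 1.67 for Hakai males, 1.26 and 0.894 for yw females and 1.43 and 1.87 for yw males. In Mettl3 males Obp84a had 1.54 and 1.09 FPKM, in Mettl14 males 1.84 and 1.37 and in Hakai males 0.305 and 0.6397, with 1.17 and 1.302 in yw females and 1.01 and 1.15 in yw males. Obp59a is required for humidity sensing, and its values in Hakai and yw males overlapped, while Mettl14 males were above yw males. Antennal markers, of which 7 of 8 were in the table, summed to 22.4 to 22.8 FPKM in Mettl3 males, 27.6 to 34.4 FPKM in Mettl14 males and 14.7 to 20.7 FPKM in Hakai males, against 22.1 to 33.5 FPKM in yw males. Orco, the co-receptor that defines most olfactory neurons, was at 0.882 and 0.756 FPKM in Mettl3 males, 1.48 and 2.07 FPKM in Mettl14 males and 0.618 and 0.786 FPKM in Hakai males, against 1.25 and 1.88 FPKM in yw males. Both Mettl3 and both Hakai libraries of Orco were thus below yw males, without a call. Other antennal markers differed from it. In Mettl3 males a10 lay inside the yw male range (11.91 and 11.37 FPKM, against 11.36 and 19.32). Snmp1 overlapped yw males there (7.14 and 7.45 FPKM, against 6.63 and 7.29), and lush was below them. In Hakai males a10 and Snmp1 were below yw males, and lush overlapped them. The part of these markers in the antennal Obp values was not tested.

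No other member was called in a mutant. Obp44a, a fatty acid carrier of astrocytes, was next after Obp99c and Obp56g in mean level. Obp44a was at 254 and 250.0 FPKM in Mettl3 males, 218 and 396 in Mettl14 males and 275 and 545 in Hakai males, against 114 and 109 in yw females and 314 and 457 in yw males. Both Mettl3 libraries were below yw males, Mettl14 and Hakai males overlapped yw males, and the log2 fold changes were -0.58 (SE 0.41, adjusted p = 0.404), -0.36 (SE 0.41, adjusted p = 0.642) and 0.03 (SE 0.41, adjusted p = 0.98) in Mettl3, Mettl14 and Hakai males. The Obp56a level was 32.1 and 32.4 FPKM for Mettl3, 40.97 and 52.2 for Mettl14 and 45.3 and 65.2 for Hakai males, 52.9 and 52.3 for yw females and 34.03 and 31.7 for yw males. In Mettl3 males Obp83g had 31.2 and 34.03 FPKM, in Mettl14 males 30.9 and 50.2 and in Hakai males 19.00 and 39.4, with 17.6 and 18.8 in yw females and 26.6 and 33.7 in yw males. Obp19b was at 16.3 and 17.7 FPKM in Mettl3 males, 22.3 and 37.7 in Mettl14 males and 11.98 and 19.5 in Hakai males, against 11.9 and 12.2 in yw females and 18.8 and 20.4 in yw males. Obp56a was above yw males in both Mettl14 and both Hakai libraries, and Obp83g and Obp19b had a high replicate 2 in Mettl14 males. The Obp83ef level was 8.22 and 7.18 FPKM for Mettl3, 6.07 and 8.46 for Mettl14 and 13.2 and 22.4 for Hakai males, 8.29 and 7.69 for yw females and 11.4 and 14.5 for yw males. Both Mettl3 and both Mettl14 libraries of Obp83ef were below yw males, and it shares 92 bases with Obp83cd on the opposite strand. Obp83cd ranged from 11.5 to 32.7 FPKM and Obp18a from 14.7 to 22.7 FPKM over the 10 libraries.

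The Obp50c level was 11.3 and 11.5 FPKM for Mettl3, 13.97 and 11.2 for Mettl14 and 11.1 and 9.799 for Hakai males, 0 and 0.0324 for yw females and 11.6 and 10.8 for yw males. In Mettl3 males Obp19c had 0.641 and 0.4296 FPKM, in Mettl14 males 0.798 and 1.31 and in Hakai males 0.591 and 1.09, with 4.72 and 4.502 in yw females and 0.872 and 0.559 in yw males. Obp50c was level across the male groups, and Obp19c was low in all of them. Among the remaining low members, those with a peak in any list follow with their values. Obp50d was at 1.39 and 1.45 FPKM in Mettl3 males, 0.492 and 0.687 in Mettl14 males and 0.385 and 0.638 in Hakai males, against 0.0623 and 0.0715 in yw females and 1.21 and 1.57 in yw males. The Obp50a level was 0.4802 and 0.345 FPKM for Mettl3, 0.6504 and 0.439 for Mettl14 and 0.387 and 0.728 for Hakai males, 0 and 0.133 for yw females and 0.561 and 0.498 for yw males. In Mettl3 males Obp56c had 0.324 and 0.599 FPKM, in Mettl14 males 0.531 and 0.355 and in Hakai males 0.2504 and 0.204, with 0.202 and 0.161 in yw females and 0.406 and 0.345 in yw males. All 3 were under 2 FPKM in every library. Obp93a was at 0.989 and 1.24 FPKM in Mettl3 males, 1.04 and 0.946 in Mettl14 males and 1.05 and 0.989 in Hakai males, against 0.0578 and 0 in yw females and 0.502 and 0.712 in yw males. The Obp46a level was 0.175 and 0.187 FPKM for Mettl3, 0 and 0 for Mettl14 and 0.0376 and 0 for Hakai males, 0 and 0.0343 for yw females and 0.162 and 0.0617 for yw males. In Mettl3 males Obp58b had 0.353 and 0.5001 FPKM, in Mettl14 males 0.181 and 0.3595 and in Hakai males 0.107 and 0.164, with 0 and 0.151 in yw females and 0.327 and 0.579 in yw males. Of these only Obp93a reached 1 FPKM. Obp58c was at 0.0885 and 0.0926 FPKM in Mettl3 males, 0 and 0.0335 in Mettl14 males and 0.226 and 0.1302 in Hakai males, against 0 and 0 in yw females and 0 and 0 in yw males. The 9 members that had no peak and were too low to test reached at most 1.86 FPKM, in Obp50b.

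The mutants were also compared with one another, in contrasts that share libraries. Between Mettl14 and Mettl3 males 2 of 33 members were called, both higher in Mettl14 (2.9% of all tested genes were called higher): Obp49a, with a log2 fold change of 1.11, SE 0.15, adjusted p = 0.00742, and Obp56h, with 1.07, SE 0.14, adjusted p = 0.00681. The Obp49a call was lost without Mettl14 replicate 2 (0.95), and the Obp56h call without Mettl3 replicate 2 (0.92) or with equal medians (0.98). Between Hakai and Mettl3 males 5 were called (4.7% of all tested genes in either direction). Obp99b (1.41, SE 0.23, adjusted p = 0.0149), Obp56e (1.14, SE 0.23, adjusted p = 0.03) and Obp83ef (1.07, SE 0.26, adjusted p = 0.0497) were higher in Hakai males. Obp83a (-1.24, SE 0.49, adjusted p = 0.159) and Obp83b (-1.101, SE 0.43, adjusted p = 0.156) were lower, and the calls of both were lost without Hakai replicate 1 (-0.63 and -0.54) and without either Mettl3 library. The Obp56e call was lost without Hakai replicate 2 (0.91), and that of Obp83ef without Hakai replicate 2 (0.71) or Mettl3 replicate 2 (0.99).

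Between Hakai and Mettl14 males 6 members were called (3.52% of all tested genes in either direction). Obp99b (1.87, SE 0.23, adjusted p = 0.00692) and Obp83ef (1.16, SE 0.26, adjusted p = 0.0562) were higher in Hakai males. Obp56h (-1.76, SE 0.14, adjusted p = 0.00175), Obp69a (-1.13, SE 0.18, adjusted p = 0.0171), Obp83b (-1.59, SE 0.43, adjusted p = 0.0894) and Obp83a (-1.67, SE 0.49, adjusted p = 0.116) were lower. The Obp83ef call was lost without Hakai replicate 2 (0.80) or Mettl14 replicate 1 (0.95), that of Obp69a without Hakai replicate 1 (-0.92), and that of Obp83a without Hakai replicate 1 (-1.05) or Mettl14 replicate 2 (-1.32). Obp57a, Obp57b and Obp57c were not called in any comparison between mutants, with log2 fold changes from -0.33 to 0.59.

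The yw females were compared with yw males to describe Obp expression in the sexes of the control strain. In a separate fit of the 4 yw libraries, 32 members and 12778 genes were tested. Of the members, 2 were called higher in females (9.2% of all tested genes were called higher) and 8 were called lower in females (22.9% of all tested genes). The 10 called members are 31.3% of those tested, near the 32.1% of all tested genes. Scaling the libraries to equal medians raised all female values by 0.37 relative to males, so the median of the tested members was 0.03 in place of -0.34 and the split was 4 higher and 7 lower. That shift turned the sign of 8 tested members, none of them called: Obp28a, Obp49a, Obp57b, Obp57c, Obp59a, Obp83cd, Obp99b and Obp99c.

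Among seminal fluid Obps, 5 of the 6 tested were lower in females, and Obp51a, Obp56f, Obp22a and Obp56i passed the filter through their male levels, so they had to differ. Obp51a was at 0.373 and 0.358 FPKM in yw females against 224 and 209 FPKM in yw males. Obp56g was at 25.04 and 24.99 FPKM in yw females against 653 and 709 FPKM in yw males, a log2 fold change of -4.71 (SE 0.09, adjusted p = 1.4e-05). Obp56f was at 1.05 and 0.718 FPKM in yw females against 42.4 and 45.4 FPKM in yw males. Obp22a was at 0.104 and 0.0592 FPKM in yw females against 30.8 and 13.7 FPKM in yw males, and Obp56i was listed at 0 in both female libraries. Obp56e was the 1 tested member of the list that was not called, with a log2 fold change of 0.18 (SE 0.18, adjusted p = 0.425). In the same females 12 of 12 accessory gland markers were called lower (22.9% of all tested genes were). Of these 12, 3 reached 1 FPKM in both female libraries. The others passed the filter through their male levels and had to differ as well. The ejaculatory duct and bulb markers summed to 514 to 534 FPKM in yw females against 1867 to 2686 FPKM in yw males.

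Outside that list, Obp50c was listed at 0 in 1 female library and 0.0324 FPKM in the other, against 11.6 and 10.8 FPKM in males. It too passed the filter through its male level and had to differ, as 5 of the 8 members called lower did. Obp44a was lower in females, with a log2 fold change of -1.76 (SE 0.21, adjusted p = 0.00283). Obp83b was lower as well, with -1.11 (SE 0.18, adjusted p = 0.00807), but not called without yw male replicate 2 (-0.87) or with equal medians (-0.74). Higher in females were Obp57a, with a log2 fold change of 2.15 (SE 0.08, adjusted p = 7.28e-05), and Obp19c, with 1.71 (SE 0.13, adjusted p = 0.00058). Obp19c was at 4.72 and 4.502 FPKM in yw females against 0.872 and 0.559 FPKM in yw males and passed the filter through females. The neighbours of Obp57a were not called between the sexes: Obp57b had a log2 fold change of -0.197 (SE 0.13, adjusted p = 0.259) and Obp57c of -0.06 (SE 0.12, adjusted p = 0.698), though no test compared the genes with one another.

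**Figure D4:**
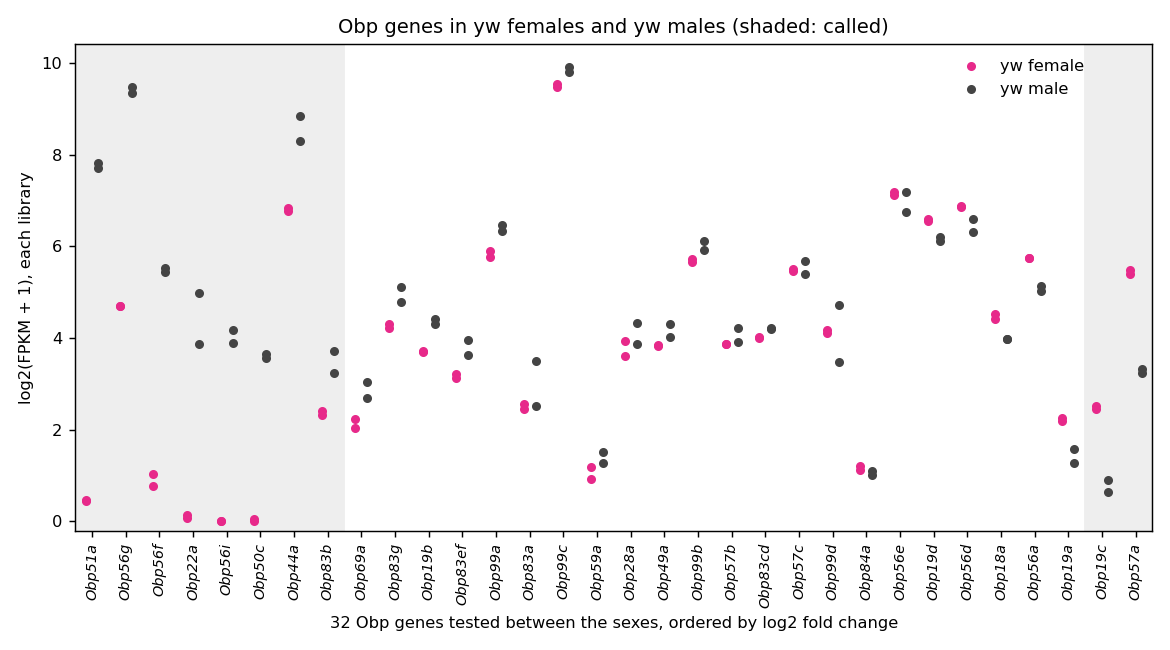
RNA level as log2(FPKM + 1) of the 32 Obp genes tested between the sexes (horizontal axis, ordered by log2 fold change) in 2 yw female and 2 yw male libraries, one point per library. The shaded genes were called: 8 on the left are lower in females, and Obp19c and Obp57a on the right are higher in females.

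m6A antibody peaks on Obp genes were mostly annotated to a 3′ UTR. That annotation is 1 label per peak, and the genes are short. A peak spanned a median of 22.3% (yw males) to 29.6% (Mettl3 males) of its gene, so the label does not place the mark within it. For example, an Obp19b peak of yw females with that label spanned 97.3% of the gene, and an Obp84a peak of yw males ended 877 bases from the 3′ end. The same measure for all peaks was not taken. The 5 lists held 138 peaks on 36 members: 30 peaks on 28 members in Mettl3 males, 27 on 24 in Mettl14 males, 22 on 20 in Hakai males, 26 on 20 in yw females and 33 on 29 in yw males. Each list was called on the replicates together, so its counts have no replicate check and no test. The share of peaks annotated to a 3′ UTR was 86.7%, 85.2%, 81.8%, 80.8% and 84.8% in that order, beside 61.1%, 63.4%, 61.7%, 48.1% and 56.6% of all peaks. Fold enrichment, the ratio of IP over input, had a median of 2.26, 2.90, 3.06, 1.895 and 2.74 on members, beside 2.53, 2.79, 2.89, 2.48 and 3.06 for all peaks.

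Among members averaging 1 FPKM or more in a group, 25 of 34 had a peak in Mettl3 males (73.5%, beside 76% of all such genes), 19 of 36 in Mettl14 males (52.8%, beside 68.5%), 16 of 33 in Hakai males (48.5%, beside 69.7%), 17 of 27 in yw females (63.0%, beside 74.2%) and 24 of 33 in yw males (72.7%, beside 71.4%). Peaks whose blocks miss the gene were left out of these member counts but not of the counts for all genes. In all 5 lists a peak was present on 12 members: Obp19a, Obp19b, Obp19d, Obp28a, Obp49a, Obp56a, Obp56f, Obp59a, Obp69a, Obp83ef, Obp8a and Obp99a. High RNA did not go with a peak in each case. Obp99c and Obp44a, both among the most abundant members, had none in any list, and neither did Obp51a once 2 wide peaks whose blocks miss the gene were set aside. Of the 138 peaks, 27 on 5 members (Obp59a, Obp69a, Obp83ef, Obp84a and Obp93a) also lie under a gene of the opposite strand.

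**Figure D5:**
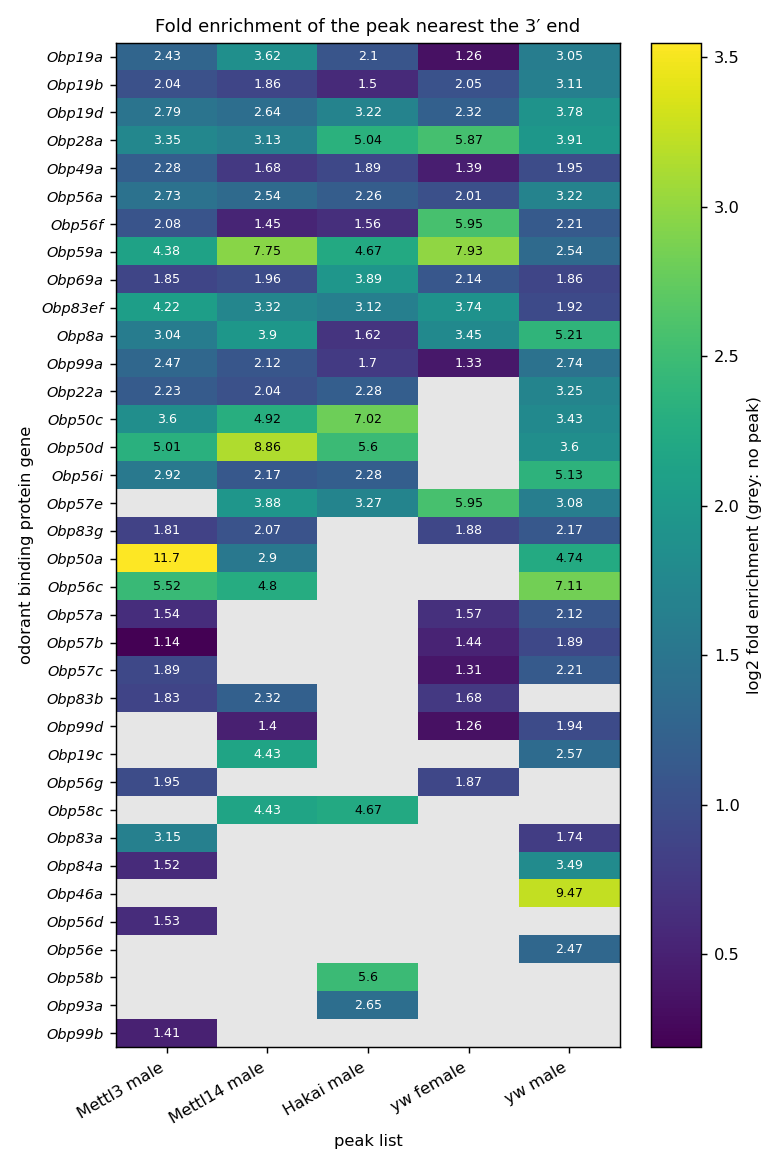
Fold enrichment (IP over input, printed in each cell and coloured on a log2 scale) of the peak nearest the 3′ end for the 36 Obp genes with a peak, in rows, across the 5 peak lists. Grey cells have no peak, and the rows of Obp57a, Obp57b and Obp57c are grey for Mettl14 and Hakai males and filled for Mettl3 males, yw females and yw males.

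A yw male peak was counted as absent from another list when no peak there overlapped it by more than 50% of the smaller peak. Of the 33 yw male peaks on members, 9 were absent from the Mettl3 list (23.3% of all yw male peaks were), 9 from the Mettl14 list (28.6%), 14 from the Hakai list (24.9%) and 14 from the yw female list (27.3%). The peaks of Obp46a, of Obp84a at 7251602 to 7251691 of 3R and of Obp57b at 20505019 to 20505136 of 2R were absent from all 3 mutant lists. The share of all yw male peaks absent from all 3 was not counted. The Obp46a peak had a fold enrichment of 9.47 over RNA of at most 0.187 FPKM in any library.

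Obp57a, Obp57b and Obp57c, called higher in all 3 mutants, had 4 yw male peaks, and all 4 were absent from the Mettl14 and Hakai lists. Of all yw male peaks, 28.6% were absent from the Mettl14 list and 24.9% from the Hakai list, and the share absent from both was not counted. A link between these peaks and the RNA levels was not tested. The peak at the 3′ end of Obp57a had a fold enrichment of 1.54 in Mettl3 males and 1.57 in yw females, against 2.12 in yw males. At Obp57c the value was 1.89 in Mettl3 males and 1.31 in yw females, against 2.21 in yw males. Obp57b had 1 peak in Mettl3 males, of 1.14, and peaks of 1.91 and 1.44 in yw females, against 2.19 and 1.89 in yw males. All these enrichments are below the median of all peaks in their own list. Obp99b, called higher in each mutant as well, had a peak in the Mettl3 list only, with a fold enrichment of 1.41, and Obp99c and Obp56h had none in any list.

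Peaks also appeared in mutant lists without a yw male partner: 7 of 30 in Mettl3 males (25.3% of all Mettl3 peaks), 4 of 27 in Mettl14 males (21.4% of all Mettl14 peaks), 3 of 22 in Hakai males (17.6% of all Hakai peaks) and 6 of 26 in yw females (30.4% of all yw female peaks). Obp83b had such a peak in Mettl3 males (1.83), Mettl14 males (2.32) and yw females (1.68). The yw male peak of Obp56e (2.47) had partners of 2.02 in the Mettl3 list and 1.45 in the Hakai list that were assigned to asRNA:CR44509 on the other strand. On members with a 3′ UTR peak in both lists, the highest such peak was compared with that of yw males. It was lower for 14 of 20 in Mettl3 males (58.1% of all such genes) and 12 of 18 in Mettl14 males (48.8%). It was also lower for 8 of 13 in Hakai males (49.3%) and 12 of 16 in yw females (73.7%).

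Receptors and other chemosensory genes were mostly too low to test in whole flies. In males 5 of 56 Or, 3 of 55 Gr and 4 of 66 Ir genes passed the filter, and the receptor called in a mutant was Gr64a, a sugar receptor, higher in Mettl14 males (log2 fold change 1.02). Of 6 further chemosensory genes (lush, Snmp1, Snmp2, a10, Phk-3 and CheB42a), CheB42a was called lower in Hakai males. It acts in pheromone sensing by male taste hairs and was at 0.587 and 0.862 FPKM in Hakai males against 5.85 and 4.31 FPKM in yw males. Mettl3 males, at 2.19 and 2.23 FPKM, were also below yw males without a call, and Mettl14 males were at 5.33 and 7.77 FPKM. CheB42a was also lower in yw females, at 1.28 and 1.21 FPKM. The lush gene was at 2.41 and 2.50 FPKM in Mettl3 males, 2.41 and 3.02 FPKM in Mettl14 males and 1.80 and 2.79 FPKM in Hakai males, against 2.59 and 4.39 FPKM in yw males, and was not called. In the fit of the yw libraries 5 Or, 2 Gr and 5 Ir genes were tested. Of these, Or59b, Or59c, Gr22f, Gr32a and Ir75d were called lower in yw females than in yw males (22.9% of all tested genes were). Ir93a was called higher (9.2% of all tested genes were). It was not checked whether any of these low genes passed the filter through 1 sex alone.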

How the data were processed

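RNA from whole flies was fragmented and sequenced with and without m6A immunoprecipitation. After trimming (fastp) and alignment (HISAT2), the authors deposited FPKM values per gene of the input libraries from StringTie. Peaks were called by the authors with exomePeak on the replicates of a group together and annotated with ChIPseeker, and the deposited lists give the fold enrichment (a ratio of IP over input) and the p-value of each peak. The deposited tables hold no read counts, so depth and counting error are unknown.

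Groups were taken from the sample labels. Log2(FPKM + 1) was fitted with limma 3.58.1 (R 4.3.3, with a variance trend), once over the 8 male libraries and once over the 4 yw libraries, for genes averaging at least 1 FPKM. The fit of the 8 male libraries and its calls against yw males were tested on simulated data. The fit of the 4 yw libraries and the comparisons between mutants were not. Python 3.11.15, pandas 2.3.3, numpy 2.4.6 and matplotlib 3.10.9 were used for the rest. A peak belonged to the gene its annotation named, repeated rows (4) were dropped, and 3 rows whose blocks miss the gene were left out.

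Values in every library are given for members called in a comparison with yw, for the 10 members with the highest mean level and for members with a peak. Other members are given by range. The members, the seminal fluid and antennal lists, and the marker lists (accessory gland, ejaculatory duct and bulb, testis, ovary, eye, antenna, fat body and female fat body) were chosen with earlier results of these data known. The markers Os9, Peb, Mst35Ba and Mst35Bb were not in the table. Alternatives were a call by adjusted p, a pseudocount of 0.1, no filter, a mean of at least 5 FPKM, equal medians, no variance trend, a replicate block, the 4 libraries of a comparison alone, leaving out each library, and stricter peak and overlap rules.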

Additional observations from a re-analysis of the deposited data

Results flagged for a closer look

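Several Obps differed between mutants by limma's test of the difference, with an adjusted p under 0.05. Obp56h was higher in Mettl14 than in Mettl3 males by a log2 fold change of 1.07, and Obp49a by 1.11. Obp56e (1.14), Obp99b (1.41) and Obp83ef (1.07) were higher in Hakai than in Mettl3 males. Between Hakai and Mettl14 males, Obp99b was higher in Hakai males (1.87), while Obp69a (-1.13) and Obp56h (-1.76) were lower. Each rests on 2 libraries a group, and the calls lost without 1 library are given in the report.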

How the results depend on the processing

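Leaving out 1 library at a time, the members called were 3 to 5 for Mettl3, 5 to 8 for Mettl14 and 5 to 8 for Hakai males against yw males, and 9 to 10 between the sexes. The count of 8 in Hakai males came without Hakai replicate 2. Between mutants the counts were 1 to 5 (Mettl14 against Mettl3), 2 to 5 (Hakai against Mettl3) and 7 to 11 (Hakai against Mettl14). Mettl14 against Mettl3 had 5 without Mettl14 replicate 1 and 1 without Mettl3 replicate 2, Hakai against Mettl3 had 3 and 2 without Mettl3 replicates 1 and 2, and Hakai against Mettl14 had 11 without Hakai replicate 2. Mettl14 against Mettl3 had 1 call with a mean of at least 5 FPKM and 1 with equal medians. With a call by adjusted p, Hakai against Mettl3 and Hakai against Mettl14 had 3 each. With all libraries, Hakai against Mettl14 had 6, outside its range with a library left out. Shares of all tested genes called with a library left out are not given, so these counts cannot be set against a rate over all genes. The cause was not tested.

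Equal medians lowered Mettl14 values against yw males by 0.13, and among all genes the share of calls that were higher was 63.4% in place of 73.4%. Between the sexes that share was 46.0% in place of 28.6%. With the replicate block the comparisons with yw had 4, 6, 5 and 10 calls and those between mutants 2, 5 and 6, the same genes as without it. The labels do not say that a number marks a shared culture or day. The correlation of the deviations of same-numbered libraries was 0.67 for Mettl14 and Hakai, 0.50 for Mettl14 and yw males, 0.46 for Hakai and yw males, and 0.01 to 0.06 for Mettl3 males with the others.

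Over the 38 pairs of a called member and a comparison, 412 alternatives kept the direction and the call, 30 kept the direction and lost the call, and 0 turned the direction. Members not called were not part of that count. The pairs were chosen for a log2 fold change of at least 1 in size. The adjusted p, no filter, the higher minimum, no variance trend, the replicate block and the 4 libraries alone leave the fold change as it is. Few turns of direction were thus possible, and their absence says little about how firm the calls are. With peaks of at least 5-fold enrichment, the members with a peak were 3 for Mettl3, 3 for Mettl14 and 4 for Hakai males, 4 in yw females and 5 in yw males. Of the 5 yw male peaks then left, 3, 1 and 2 were absent from the Mettl3, Mettl14 and Hakai lists (26.1%, 30.8% and 17.5% of all yw male peaks of that enrichment). With an FDR of at most 0.01, 4, 7 and 12 of 27 were absent (20.8%, 26.1% and 22.2%). With an overlap of at least 50% of both peaks, 11, 12 and 17 of 33 were absent (40.7%, 45.1% and 41.0%). Each peak list stands alone, and depth is unknown.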
